A study of Rattus norvegicus with 6 samples.

Results

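The genes described here encode the fibril-forming collagens of bone and glycoproteins deposited with them, measured in femur. The set was given as 5 Ensembl gene IDs with their symbols, and all 5 were found among the 32545 gene rows of the count table: Col1a1 (ENSRNOG00000003897), Col1a2 (ENSRNOG00000011292), Col3a1 (ENSRNOG00000003357), Sparc (ENSRNOG00000012840) and Fn1 (ENSRNOG00000014288). The symbols come with the set. The RefSeq rat gene table used here holds all 5 symbols but pairs 0 of its 47357 genes with an Ensembl ID, so the pairs were neither checked nor contradicted. Polyadenylated RNA from femur of Wistar rats, an outbred laboratory strain, was sequenced in 6 libraries, 3 from controls and 3 from rats under chronic sleep deprivation (CSD). By their labels, the control libraries come from rats of 12, 13 and 14 weeks and the CSD libraries from rats of 15, 16 and 17 weeks, whereas the series' design text gives 12 weeks for all. Labelled age and group cannot be told apart. No source used here says whether a library is 1 animal or a pool, how the rats were kept awake, or whether marrow was flushed out. If the 3 libraries of a group do not come from separate animals, the p-values measure technical spread alone.

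Type I collagen, the main protein of bone matrix, is a triple helix of pro-alpha1 chains, from Col1a1, and a pro-alpha2 chain, from Col1a2. Osteoblasts secrete it as a procollagen, whose ends are trimmed before it assembles into fibrils that later mineralise. Type III collagen, from Col3a1, co-assembles with type I in soft connective tissue, vessels and the periosteum. SPARC (osteonectin) binds collagen and calcium and is abundant in bone, and fibronectin, from Fn1, is a cell-adhesion glycoprotein on which collagen fibrils are laid down. The series' title speaks of impaired bone formation. The comparison below asks whether transcripts of these matrix proteins differed between the groups.

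A stretch of promoter is shown for Col1a2 and Sparc, which were both highest in control 2 and next highest in control 3 (below). Of the 4 genes with that order, these 2 have a promoter entry in the RefSeq table (GRCr8). The bases run from 250 to 101 before each gene's annotated start. They lie at chr4:33518307-33518456, plus strand, for Col1a2 and at chr10:40038917-40039066, minus strand, for Sparc. Capitals mark matches, on either strand, to TATAAA, the core of a TATA box, to CCAAT, which is bound by NF-Y, and to GGAGGAGG, a run of the GGA repeat. The motifs were picked with the letters in view.
Col1a2: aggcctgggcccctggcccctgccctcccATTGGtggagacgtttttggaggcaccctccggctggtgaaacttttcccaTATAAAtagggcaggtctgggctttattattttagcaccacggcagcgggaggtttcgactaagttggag
Sparc: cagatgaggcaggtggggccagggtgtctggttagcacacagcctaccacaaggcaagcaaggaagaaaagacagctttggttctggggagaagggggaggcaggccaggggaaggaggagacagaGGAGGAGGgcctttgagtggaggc
The Col1a2 stretch held 1 CCAAT match, on the minus strand, and 1 TATAAA match, which do not overlap. They begin 221 and 170 bases before the annotated start, and whether either is in use was not tested. The Sparc stretch held neither of these motifs and had 1 GGAGGAGG match. Over the same stretch of 33465 rat promoters, 21.5% held CCAAT, 7.69% TATAAA and 3.59% GGAGGAGG.

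The libraries held 8366443 to 9572898 reads in genes, 36.2% to 38.2% of all reads in the table, and 16550 to 17089 genes with a read. The 5 matrix genes took 4.20%, 3.13% and 1.69% of gene reads in controls 2, 3 and 1, and 1.83%, 1.51% and 1.24% in CSD 1, 3 and 2. Control 1 thus lay within the CSD range. The share averaged 3.01% ± 1.26 for the controls and 1.53% ± 0.30 for CSD libraries (SD, n = 3 each; exact two-sided permutation test, p = 0.2, where 3 against 3 cannot go below 0.1). All 5 genes are deeply counted. The lowest count, 1613 reads of Col1a2 in CSD 2, has a counting error of 2.49%, the largest for any of the 5 genes. Differences of a few percent or less between libraries can lie within it. In bulk femur RNA, fewer matrix-producing cells and less transcript per cell cannot be told apart.

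Transcripts of both type I chains, of type III collagen and of Sparc averaged lower in CSD, and that of Fn1 higher. None of the 5 passed the test across all genes. The 4 lower genes had a common profile: control 2 was highest, control 3 came next, and control 1 lay among or below the CSD libraries. With edgeR's quasi-likelihood test 0 of 13431 tested genes had a Benjamini-Hochberg adjusted p under 0.05 (0%, smallest 0.124), and 1679 had an unadjusted p under 0.05. DESeq2 called 297 of the 15117 genes to which it gave an adjusted p, and limma-voom called 0 of 13431. Col1a1, Col1a2 and Sparc were lower in CSD at an unadjusted p under 0.05, as were 6.39% of all tested genes. The median log2 fold change was -0.86 over the 5 genes and 0.0026 over all tested genes. The 5 were chosen with earlier results of these data known and 4 of them share a profile, so these contrasts with all genes are descriptive only. All 5 passed the filter on low counts.

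Col1a1 encodes the pro-alpha1 chain of type I collagen and was number 5 of all genes by summed reads, with 74869 to 257388 per library. Its level was 10794, 27273 and 21282 CPM (gene counts scaled to library size, with TMM factors between libraries) in controls 1, 2 and 3. In CSD 1, 2 and 3 it was 11495, 8588 and 10598 CPM. Controls 2 and 3 were at least 1.85 times the highest CSD library, while control 1 fell inside the CSD range, so the groups overlap. Controls averaged 19783 ± 8341 CPM and CSD libraries 10227 ± 1489 CPM (SD, n = 3). The log2 fold change was -0.95 (SE 0.32, 95% interval -1.69 to -0.21) with an edgeR adjusted p of 0.329. DESeq2 gave -0.95 with an adjusted p of 0.0263, as 1 of the 297 genes it called out of 15117. No alternative run with edgeR made this call. The edgeR adjusted p came down to 0.0554 without control 1, where the log2 fold change was -1.25. Without control 2 the log2 fold change was -0.65 (edgeR adjusted p = 0.624).

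Col1a2, for the pro-alpha2 chain that completes the type I trimer, had the largest difference of the 5 and the widest spread. Per library, Col1a1 had 21.4 to 54.1 times as many reads as this row, for a reason that was not tested (below). Controls 1, 2 and 3 had 199.6, 1277 and 537 CPM. CSD 1, 2 and 3 had 351, 185 and 201 CPM. Control 2 stood at 6.40 times control 1, a wider gap than that between the group means, 671 ± 551 CPM for controls against 246 ± 91.6 CPM for CSD (SD, n = 3). The log2 fold change was -1.45 (SE 0.58, 95% interval -2.77 to -0.13; edgeR adjusted p = 0.378). Without control 2 it was -0.58 (edgeR adjusted p = 0.697), and without control 1 it was -1.88 (edgeR adjusted p = 0.0783). The direction held in each of the 15 alternatives, but the size depends on which control is counted.

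Col3a1, for type III collagen, followed the type I genes in controls and less so in CSD. Its level was 351, 1299.7 and 815 CPM in controls 1, 2 and 3 and 551, 459 and 634 CPM in CSD 1, 2 and 3. Control 1 was the lowest of the 6 libraries and controls 2 and 3 were the highest. The control mean was 822 ± 474 CPM and the CSD mean 548 ± 87.4 CPM (SD, n = 3). The log2 fold change was -0.59 (SE 0.40, 95% interval -1.49 to 0.32; edgeR adjusted p = 0.552). Without control 2 the log2 fold change was -0.09 (edgeR adjusted p = 0.946), and without control 1 it was -0.95 (edgeR adjusted p = 0.121).

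Sparc, the collagen- and calcium-binding glycoprotein, was number 12 of all genes by summed reads. It had 3458, 10156 and 6081 CPM in controls 1, 2 and 3 and 4724, 3133 and 2979 CPM in CSD 1, 2 and 3. As for the type I genes, CSD 1 was the highest CSD library and lay above control 1. Controls averaged 6565 ± 3375 CPM and CSD libraries 3612 ± 966 CPM (SD, n = 3), and the log2 fold change was -0.86 (SE 0.37, 95% interval -1.71 to -0.01; edgeR adjusted p = 0.397). Without control 2 it was -0.40 (edgeR adjusted p = 0.702).

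Fn1, for fibronectin, did not share this profile. Controls 1, 2 and 3 had 1042, 1107 and 1053 CPM, nearly level with each other, and CSD 1, 2 and 3 had 1219.8, 1212 and 1484 CPM. Each CSD library lay above each control, as for 8.77% of tested genes; for 8.05% each CSD library lay below each control. Controls averaged 1067 ± 34.9 CPM and CSD libraries 1305 ± 155 CPM (SD, n = 3). The log2 fold change was 0.29 (SE 0.14, 95% interval -0.03 to 0.61; edgeR adjusted p = 0.433). The separation depends on the scaling between libraries. As a plain share of gene reads Fn1 took 0.111%, 0.113% and 0.111% in controls and 0.122%, 0.110% and 0.141% in CSD. There CSD 2 did not lie above the controls. It differed from controls 1 and 3 by less than the counting error, at most 1.04% of an Fn1 count. Scaled to library totals the log2 fold change of Fn1 was 0.16, where the median over all genes shifts to -0.13.

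**Figure D1:**
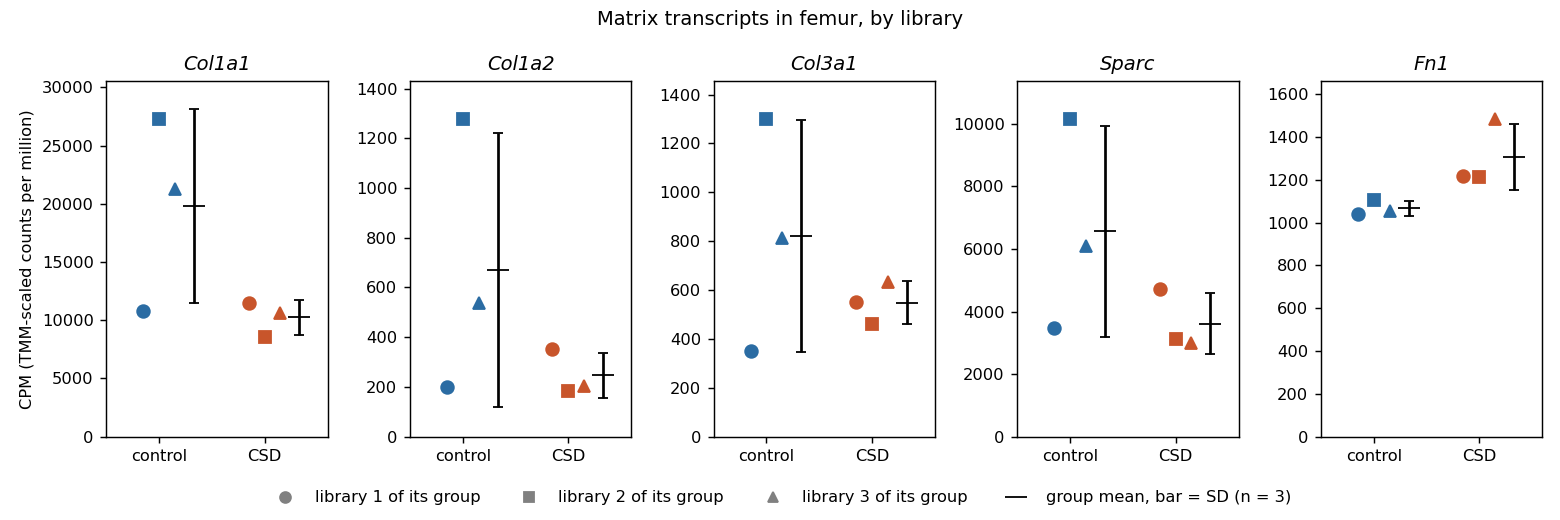
Level of each matrix transcript (vertical axes, CPM, each panel from 0) in the 3 control and 3 CSD libraries, with symbols for the library number within its group and, to the right of the points, the group mean with its SD. For Col1a1, Col1a2, Col3a1 and Sparc controls 2 and 3 lie above the other 4 libraries and control 1 lies among or below the CSD libraries; for Fn1 all 3 CSD libraries lie above the controls.

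The order of libraries was alike in the 4 genes that averaged lower in CSD. Control 2 was highest and control 3 second for each of them, an order found in 7.48% of the 13431 tested genes. Control 1 was the lowest control for each of these 4 genes, against 33.3% of tested genes. For Fn1 the lowest control is not resolved. Control 1 had 1042 CPM and control 3 had 1053 CPM, a gap within the counting error, at most 1.04% of an Fn1 count. As a plain share of gene reads the order turned, with 0.1109% in control 1 and 0.1106% in control 3. The fold between control 2 and control 1 was 2.53 for Col1a1, 2.94 for Sparc, 3.70 for Col3a1 and 6.40 for Col1a2, but 1.06 for Fn1. A level in control 2 above 2 times that in control 1 was seen in 5.20% of tested genes. These libraries are replicates of 1 group, and what set controls 2 and 3 apart from control 1 was not tested.

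**Figure D2:**
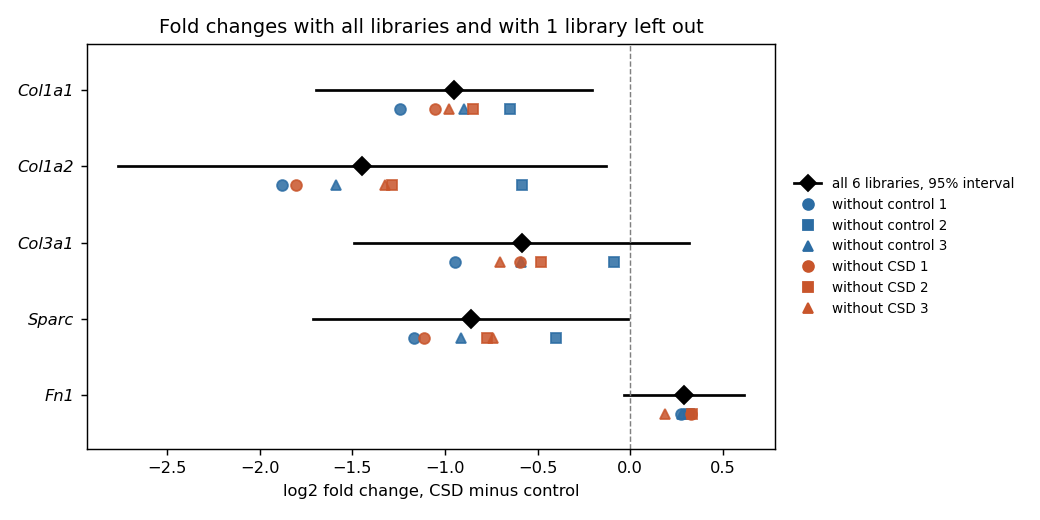
Log2 fold change of each gene, CSD minus control (horizontal axis), with all 6 libraries (diamond, line for the 95% interval) and, below it, with 1 library left out (symbols by library). Leaving out control 2 brings the 4 negative values nearest to 0, to between -0.65 and -0.09, and leaving out control 1 takes them farthest from 0, to between -1.88 and -0.95.

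Spread within the control group was wide for the collagens and Sparc and narrow for Fn1. Among 9535 tested genes averaging at least 10 CPM, the median range of log2 CPM over the 3 controls was 0.33. It was 1.34 for Col1a1, 1.55 for Sparc, 1.89 for Col3a1 and 2.68 for Col1a2. These 4 values lay above those of 97.5%, 98.2%, 98.7% and 99.2% of the genes. For Fn1 the range was 0.087, above 5.50% of them. Over the 3 CSD libraries the ranges were 0.42 for Col1a1, 0.67 for Sparc, 0.46 for Col3a1, 0.92 for Col1a2 and 0.29 for Fn1, against a median of 0.34. The 4 genes thus spread more among controls than among CSD libraries, and the difference in spread between groups of 3 was not tested.

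**Figure D3:**
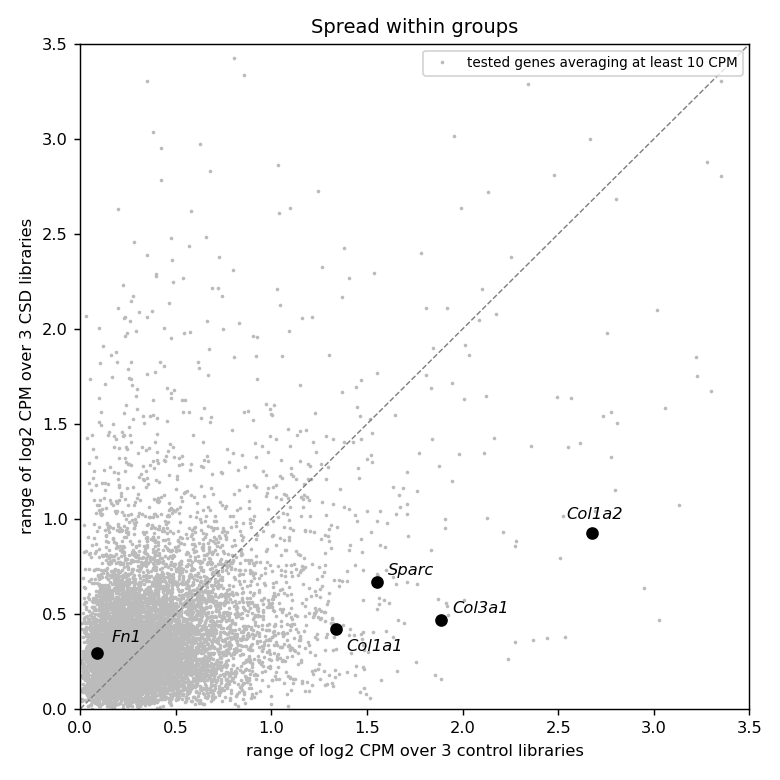
Range of log2 CPM (highest minus lowest library) over the 3 controls (horizontal axis) and the 3 CSD libraries (vertical axis) for tested genes averaging at least 10 CPM (grey points; 64 genes lie beyond the axes), with the 5 matrix genes in black and the dashed line where both ranges are equal. Col1a1, Col1a2, Col3a1 and Sparc lie far to the right, at 1.34 to 2.68 among controls against 0.42 to 0.92 in CSD, and Fn1 lies near the origin.

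Ratios of counts within a library do not depend on scaling between libraries and show whether the matrix transcripts kept their proportions. The transcripts differ in length, so a ratio is read between libraries and not as the amount of one transcript over another. For each of the 5 values per library compared here (4 ratios and the summed share above), p is from an exact two-sided permutation test that cannot go below 0.1, and adjusted values are over these 5.

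The count of Col1a1 over that of Col1a2 was 54.1, 21.4 and 39.6 in controls 1, 2 and 3 and 32.7, 46.4 and 52.6 in CSD 1, 2 and 3. The ratio was lowest in control 2, where both genes were highest, and highest in control 1. The log2 ratio averaged 5.16 ± 0.68 for controls and 5.43 ± 0.36 for CSD (SD, n = 3; exact p = 0.7, adjusted 0.8), a difference that turned to -0.10 without control 2. The 2 chains of type I collagen were thus counted in proportions that varied 2.53-fold among controls. Whether the low Col1a2 counts come from the transcript, from its gene model or from the counting was not tested.

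Sparc over Col1a1 was 0.320, 0.372 and 0.286 in controls 1, 2 and 3 and 0.411, 0.365 and 0.281 in CSD 1, 2 and 3. This was the steadiest of the 4 ratios over the 6 libraries. The log2 ratio averaged -1.62 ± 0.19 for controls and -1.52 ± 0.28 for CSD (SD, n = 3; exact p = 0.8, adjusted 0.8).

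Type III to type I collagen, as Col3a1 over Col1a1, was 0.0325, 0.0477 and 0.0383 in controls 1, 2 and 3 and 0.0479, 0.0535 and 0.0598 in CSD 1, 2 and 3. Each CSD library was above each control, although control 2 and CSD 1 differed by less than their counting errors (0.924% and 1.49% of the ratio), so that separation is not resolved at this depth. The log2 ratio averaged -4.68 ± 0.28 in controls and -4.22 ± 0.16 in CSD, a difference of 0.46 (SD, n = 3; exact p = 0.1, the smallest possible, adjusted 0.25). This ratio was higher in CSD while both of its genes averaged lower there.

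Fn1 over Col1a1 was 0.0965, 0.0406 and 0.0495 in controls 1, 2 and 3 and 0.106, 0.141 and 0.140 in CSD 1, 2 and 3. The groups again did not overlap, with control 1 next to CSD 1. The log2 ratio averaged -4.11 ± 0.66 in controls and -2.97 ± 0.23 in CSD, a difference of 1.14 (SD, n = 3; exact p = 0.1, the smallest possible, adjusted 0.25). It was 0.89 without control 2 and 1.51 without control 1. By edgeR the log2 fold change was -0.95 for Col1a1 and 0.29 for Fn1, so most of this difference lies in the denominator. Col3a1 over Col1a1 has the same denominator, so the separated ratios are not independent observations. For how many tested genes the ratio to Col1a1 separates the groups was not counted.

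**Figure D4:**
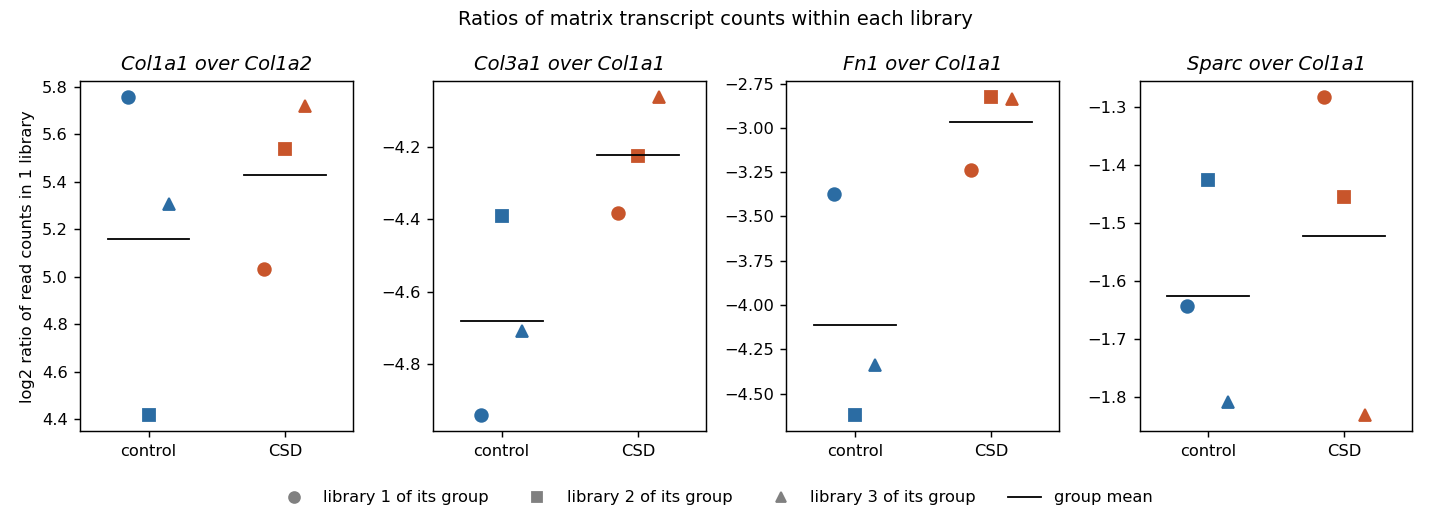
Log2 ratio of the read counts of 2 matrix genes within each library (vertical axes, not from 0), with symbols for the library number and a line at the group mean. Col3a1 over Col1a1 and Fn1 over Col1a1, which share a denominator, place each CSD library above each control, and the other 2 ratios overlap. For Col3a1 over Col1a1 the nearest pair, control 2 and CSD 1, differs by less than its counting errors.

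Across all genes averaging at least 10 CPM, the profile of the type I chains (the mean of centred log2 CPM of Col1a1 and Col1a2 over the 6 libraries) was most closely followed by 2 genes that the files give by ID alone. ENSRNOG00000012480 (Pearson's r = 0.997 over 6 libraries) had 31.4, 77.5 and 55.0 CPM in controls 1, 2 and 3 and 39.7, 26.7 and 31.6 CPM in CSD 1, 2 and 3. ENSRNOG00000000700 (r = 0.995) had 43.6, 134 and 82.6 CPM in controls 1, 2 and 3 and 52.1, 35.3 and 45.2 CPM in CSD 1, 2 and 3. Both were picked as the best of 9530 genes, which makes a high r likely, and 280 of these had r above 0.9. With the same profile, r was 0.987 for Sparc, 0.905 for Col3a1 and -0.438 for Fn1. These values describe 6 libraries, 3 of them in each group.

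Other collagens, the enzymes that fold, trim and cross-link procollagen, small matrix proteoglycans, mineral-binding proteins and matrix receptors were listed by symbol, as were markers of red cells, neutrophils, muscle, fat, cartilage, osteoblasts, osteoclasts, endothelium, fibroblasts and B cells. These lists could not be matched to IDs and were not analysed here. The femur label was therefore not checked, since the abundance of Col1a1 and Sparc alone cannot single out femur. Markers of other cell types could not be picked out among the gene rows, so their levels beside the matrix genes were not read.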

How the data were processed

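The deposited file is 1 table of unnormalised gene counts from the 6 libraries. The submitters' processing notes name HTSeq 0.12.4, HISAT2 2.2.1 and, as the build, rn6. Of annotation release, strand setting and trimming the sources used here say nothing. The 5 closing rows, which name no gene, held 61.8% to 63.8% of reads and stayed out of library sizes and tests. The row for reads in no gene feature alone held 45.5% to 47.1% of reads. Without a known strand setting, overlapping and antisense genes cannot be separated. Genes were kept with filterByExpr (13431 of 32545), scaled with TMM factors (0.912 to 1.07) and tested across all of them with edgeR 4.0.16 (glmQLFit and glmQLFTest, two-sided, no covariate, Benjamini-Hochberg threshold 0.05, prior count 0.125) in R 4.3.3. SE is the absolute log2 fold change over the square root of F, and 95% intervals use the fit's degrees of freedom. Log2 CPM took a prior count of 2. DESeq2 1.42.0 and limma 3.58.1 served as alternatives, beside other scalings and filters, a fit blocked on replicate number, and fits without each library in turn. The edgeR fit was tested on simulated data. No library duplicated another. The genes named are the 5 of the set and the 2 with the most similar profile to the type I chains (highest Pearson's r, at least 10 CPM). The members and lists were chosen with earlier results of these data known.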

Additional observations from a re-analysis of the deposited data

How the results depend on the processing

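The 5 genes were read from 15 alternative fits, which gave 75 log2 fold changes. Fits that kept all 6 libraries changed only the scaling, filter, block or method. No value turned direction, and 1 passed an adjusted p of 0.05. That was Col1a1 with DESeq2 (-0.95, adjusted p 0.0263), which called 297 of 15117 genes. Adjusted p otherwise ran up to 0.946. With 1 library left out, log2 fold changes ran from -1.25 to -0.65 for Col1a1, -1.88 to -0.58 for Col1a2, -0.95 to -0.09 for Col3a1, -1.17 to -0.40 for Sparc and 0.19 to 0.33 for Fn1. The count of all genes called was 0 of 13431 with edgeR, 112 of 19514 with no filter and 297 of 15117 with DESeq2. It was 104 of 13431 with the replicate block and 1679 of 13431 at an unadjusted p under 0.05. With 1 library left out it ran from 0 to 230 (151 of 13771 without control 1, 230 of 13714 without CSD 1, 73 of 13772 without CSD 3). The cause was not tested. Nothing in the labels ties a shared number to a pairing, and within-group deviations of libraries with the same number had correlations of -0.0063, -0.057 and 0.17 for numbers 1, 2 and 3, with number 3 alone matching its own best. With the block the log2 fold changes were -0.87, -1.17, -0.40, -0.77 and 0.28 for Col1a1, Col1a2, Col3a1, Sparc and Fn1, and none of the 5 was called. With 1 library left out, the CSD minus control difference in log2 ratio ran from -0.10 (without control 2, reversed) to 0.57 for Col1a1 over Col1a2 and from -0.018 (without CSD 1, reversed) to 0.26 for Sparc over Col1a1. It ran from 0.33 to 0.60 for Col3a1 over Col1a1 and from 0.89 to 1.51 for Fn1 over Col1a1. The difference in summed share ran from -2.14 to -0.88 percentage points. Counting error was at most 2.49% of any count of these 5 genes.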
